A study of Oryctolagus cuniculus with 16 samples.

Results

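The comparison set microglia that had received PPARg by adenovirus against microglia that had received the control virus, in 8 of the 16 RNA-seq libraries of the series. All libraries labelled microglia were taken, 4 from kits given Ad-PPARg and 4 from kits given Ad-GFP. The kits were New Zealand rabbits with intraventricular hemorrhage (IVH), bleeding into the fluid-filled ventricles of the brain, and the title identifiers give a separate animal for each of the 8. Ad-PPARg is an adenovirus that carries PPARg with green fluorescent protein (GFP), and Ad-GFP carries GFP alone. Both use the CMV promoter, which is not restricted to 1 cell type, and both were injected into a cerebral ventricle, so every kit had a hemorrhage and an adenovirus. Microglia were sorted at day 7 as CD11b-positive, CD45-low cells, and how much of the virus reached them is not stated in the sources used here.

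Microglia are the resident macrophages of the brain and clear debris and red blood cells after bleeding. PPARg is a nuclear receptor that binds fatty-acid ligands, pairs with the retinoid X receptor and switches on genes of lipid uptake and storage, while holding back inflammatory genes in macrophages. The files give Ensembl identifiers and positions without gene names, and none could be attached, so the level of PPARg itself, its known targets and the defining markers of microglia were not read. Genes are given by position as the files list them. The build is not given in the sources used here.

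The sorts could be compared only with each other. Genes at least 16-fold higher in the O4-sorted oligodendrocyte precursor cells (OPC) of the series, 733 in number, held 0.101 to 0.493% of the counts of a microglia library, and the 824 genes at least 16-fold higher in microglia held 21.4 to 26.7%. Both sets came from a fit that included these same microglia libraries. A low share of the first set and a high share of the second were fixed by that choice and do not check the sorts. The share of the OPC genes was 0.330, 0.226, 0.493 and 0.233% in Ad-PPARg and 0.101, 0.336, 0.252 and 0.207% in Ad-GFP. The groups overlapped (two-sided exact permutation p = 0.343, n = 4 per group).

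Counts on genes ranged from 6242342 to 17608855 per library. The first part of each identifier, called the prefix here, is nested in treatment. Ad-PPARg replicates 1 and 2 have prefixes K188 and K196, and replicates 3 and 4 share K197. Ad-GFP replicate 1 has K193, replicates 2 and 3 share K195, and replicate 4 has K198. What the prefix stands for is not stated, and no prefix occurs under both treatments, so that prefix and treatment cannot be told apart within a prefix. A second division ran through both treatments. Mitochondrial genes of at least 200 bases that start after position 7000 were near 0 in Ad-PPARg replicates 1 and 2 and in Ad-GFP replicate 1, and abundant in the other 5 libraries.

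After scaling, expression levels were spread alike in the 8 libraries at the centre and differed at the edges. Levels are in reads per kilobase of exon (RPKM), on library totals scaled by the trimmed mean of M values. The median tested gene had 10.2 to 11.0 RPKM, and 6561 to 6786 genes reached 10 RPKM in a library. The scaling is meant to bring most genes to a like level between libraries, so the like centre partly follows from it. At the top, 56, 76, 83 and 91 genes reached 1000 RPKM in Ad-PPARg replicates 1 to 4, and 93, 107, 99 and 79 genes did so in Ad-GFP. At the bottom, 11923 genes reached 1 RPKM in Ad-PPARg replicate 1 and 10729 in Ad-GFP replicate 1, with the other libraries between. The 10 most abundant genes of a library took 11.5, 12.5, 9.68 and 10.4% of its counts in Ad-PPARg and 15.6, 12.7, 12.7 and 11.4% in Ad-GFP. This gave 11.0 ± 1.23% against 13.1 ± 1.74% (SD, n = 4 each), a difference of -2.07 percentage points that was -1.26 without Ad-GFP replicate 1. The groups overlapped (exact permutation p = 0.0857, adjusted p = 0.400 over 7 library measures, where 4 against 4 can reach 0.0286).

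The gene with the most counts lay on chromosome 15, 62156546 to 62163822, minus strand, with a mean of 14345 RPKM. It had 20290, 16177, 6136 and 12209 CPM (counts per 1e+06 counts, on library totals scaled by the trimmed mean of M values, TMM) in Ad-PPARg and 39377, 23781, 23607 and 17251 in Ad-GFP. Ad-GFP replicate 1 held the highest level and Ad-PPARg replicate 3 the lowest, and Ad-GFP replicate 4 lay within the Ad-PPARg range. The Ad-PPARg mean was 1.90-fold lower, a difference of -0.92 on the log2 scale (SE 0.36, edgeR adjusted p = 0.421). The next gene, on scaffold GL018717, 2789010 to 2791550, had a mean of 22898 RPKM and 12462, 18092, 12886 and 15646 CPM in Ad-PPARg against 22526, 20490, 21268 and 16031 in Ad-GFP. Its groups overlapped too, and the fitted difference was -0.44 (log2, SE 0.17, edgeR adjusted p = 0.421). All 10 genes with the most counts had a negative log2 fold change, from -0.92 to -0.07, and none passed the edgeR threshold.

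No gene passed an adjusted p of 0.05 in edgeR's quasi-likelihood test with Benjamini-Hochberg adjustment over 13041 tested genes (0% called), and the lowest adjusted p was 0.0890. At an unadjusted p under 0.05 there were 1488 genes (11.4%), of which 635 (4.87%) were higher in Ad-PPARg and 853 (6.54%) lower. The 4 libraries of each group did not overlap for 541 genes (4.15%), 240 of them higher (1.84%) and 301 lower (2.31%). The number of calls moved with the test. DESeq2 called 109 genes, limma with sample quality weights 1281 and limma with the prefix as a random block 1. The p-values measure the spread between animals, and animals of 1 prefix may not be independent. The consensus correlation within a prefix, estimated by limma, was 0.534 over 6 prefixes, 3 per treatment. Of these fits, only the one with the random block took it into account. With 1 library left out edgeR called 4 genes when K196-4 was omitted, 1 for K193-5, 3 for K198-7 and 0 in the other 5 cases. Genes with an unadjusted p under 0.05 numbered 735 when K197-3 was left out, 984 when K193-5 was, 819 when K195-11 was and 2801 when K198-7 was.

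The 12 genes of lowest p in each direction show what the separation looked like gene by gene, although each missed the threshold. The groups did not overlap for 11 of the 12 higher genes and all 12 lower ones. The means differed by 1.60-fold to 8.45-fold among the higher genes and by 1.62-fold to 11.4-fold among the lower ones. Of the 24, 6 higher and 8 lower genes were at least 2-fold higher in microglia than in OPC at an adjusted p under 0.05, and 1 in each direction was higher in OPC. Over all tested genes, 3082 (23.6%) were higher in microglia and 2632 (20.2%) in OPC.

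The lowest p of all belonged to a gene on chromosome 14, 53115895 to 53176541, minus strand (ENSOCUG00000029263), which was lower in Ad-PPARg. It had 5.21, 4.57, 7.09 and 3.84 CPM in Ad-PPARg and 16.7, 34.1, 32.8 and 24.0 in Ad-GFP. Every Ad-GFP library lay above every Ad-PPARg library, with more than 2-fold between the closest. The log2 fold change was -2.38 (SE 0.27, edgeR adjusted p = 0.0890, and 0.0253 without Ad-GFP replicate 1). That library was the lowest of the Ad-GFP group, so a larger difference without it follows from its level and is no added support. In OPC the same gene stood at 3.54 CPM in Ad-PPARg and 3.89 in Ad-GFP.

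A single-exon gene on chromosome 14, 87023626 to 87023994, minus strand (ENSOCUG00000013247), had the steepest difference among the lower genes. It had 0.446, 1.01, 0.405 and 1.42 CPM in Ad-PPARg and 16.9, 8.81, 6.96 and 5.81 in Ad-GFP. The groups were apart, and Ad-GFP replicate 1 was the highest of its group. The log2 fold change was -3.51 (SE 0.50, edgeR adjusted p = 0.142). Another lower gene, on chromosome 18, 8938033 to 8955097, had 4.88 to 5.81 CPM in the 4 Ad-GFP libraries and 0.167 to 1.21 in Ad-PPARg, so that Ad-GFP libraries differed little among themselves.

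Among the higher genes, the lowest p fell on chromosome 5, 22586307 to 22596405, plus strand (ENSOCUG00000026015). It had 28.1, 43.8, 39.6 and 31.9 CPM in Ad-PPARg and 7.16, 9.19, 12.8 and 14.4 in Ad-GFP. The groups were well apart, with Ad-GFP replicate 4 closest to Ad-PPARg. The log2 fold change was 1.73 (SE 0.24, edgeR adjusted p = 0.142). Its neighbour on the same strand, 22576123 to 22583107, was the fourth gene of the list, with 20.5, 19.3, 29.4 and 23.6 CPM in Ad-PPARg and 3.78, 7.60, 8.62 and 11.2 in Ad-GFP. Both genes had under 1 CPM on average in either OPC group. Reads of near-identical neighbours could have been shared between them by the counting, and whether these genes are alike in sequence was not read.

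The second higher gene lay on chromosome 13, 43153367 to 43168379, minus strand (ENSOCUG00000002957). It had 32.3, 30.2, 28.1 and 31.8 CPM in Ad-PPARg and 4.18, 5.19, 5.65 and 12.7 in Ad-GFP. The Ad-PPARg libraries were nearly level and Ad-GFP replicate 4 stood above its group. The log2 fold change was 2.18 (SE 0.31, edgeR adjusted p = 0.142), and 2.60 without Ad-GFP replicate 4, when the edgeR adjusted p was 0.00103. That library was the Ad-GFP library closest to Ad-PPARg, so a larger difference without it follows from its level and is no added support. The most abundant of the higher genes, on chromosome 3, 33118052 to 33137847, had 307, 257, 236 and 329 CPM in Ad-PPARg and 85.2, 191, 117 and 87.1 in Ad-GFP.

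**Figure D1:**
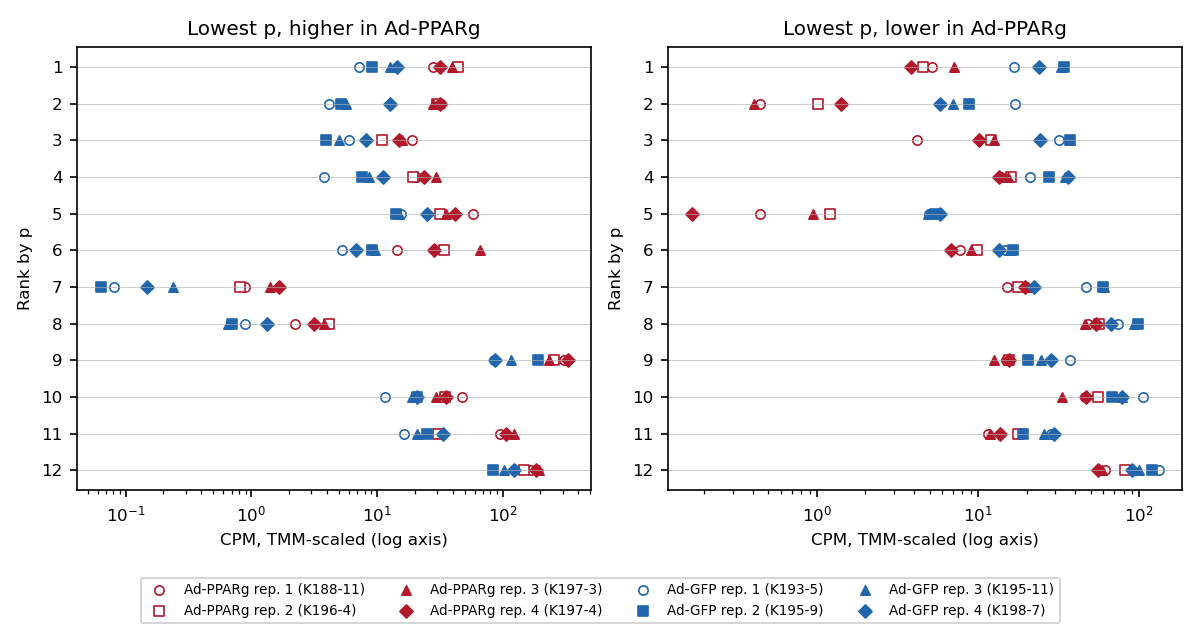
CPM of the 12 genes of lowest p in each direction (rows, by rank), with 1 symbol per library on a log axis, red for Ad-PPARg and blue for Ad-GFP, open where the mitochondrial block was near 0. The red and blue symbols are apart in 11 of the 12 higher genes and in all 12 lower ones, and the exception is rank 11 on the left, where Ad-PPARg replicate 2 falls among the Ad-GFP libraries.

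Effect sizes depended on expression level. Over all tested genes the median log2 fold change was 0.03, the median size 0.22 and the 90th percentile of size 0.68, against a median SE of 0.20. Binned by mean log2 CPM, the median size was 0.45 under 0, 0.39 from 0 to 2, 0.25 from 2 to 4, 0.17 from 4 to 6, 0.17 from 6 to 8 and 0.21 at 8 and over. The median SE over the same bins was 0.66, 0.55, 0.25, 0.15, 0.14 and 0.16. The share of genes with an unadjusted p under 0.05 ran the other way, at 2.14, 3.07, 9.61, 14.6, 15.5 and 17.7%. Differences of at least 2-fold were met in 8.48% of the 2475 genes from 0 to 2 and in 1.02% of the 2560 genes from 6 to 8. Differences of 2-fold were thus most common where errors were wide.

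The sign of the effect also changed with level. The median log2 fold change was 0.23 under 0, 0.25 from 0 to 2, 0.07 from 2 to 4, -0.01 from 4 to 6, -0.01 from 6 to 8 and -0.10 at 8 and over. From 0 to 2, 67.7% of genes were higher in Ad-PPARg, and at 8 and over 37.2% were. Genes higher in OPC made up 44.8% of the bin from 0 to 2 and had a median of 0.30 there, while the remaining genes of the bin had 0.16. The part of OPC RNA in this shift was not tested.

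Single libraries set the shift among low genes. In the bin from 0 to 2, the median deviation of a library from each gene's mean over the 8 libraries was 0.62, -0.19, 0.31 and -0.25 (log2 CPM) in Ad-PPARg replicates 1 to 4. It was -0.62, 0.36, -0.13 and 0.12 in Ad-GFP. The groups overlapped, and libraries of 1 prefix lay on opposite sides, 0.31 and -0.25 for K197 and 0.36 and -0.13 for K195. Without Ad-PPARg replicate 1 the median log2 fold change of the bin was 0.02, without Ad-GFP replicate 1 it was 0.08, and without Ad-GFP replicate 2 it was 0.40. In the 5 libraries with an abundant mitochondrial block it was -0.11, the opposite direction.

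**Figure D2:**
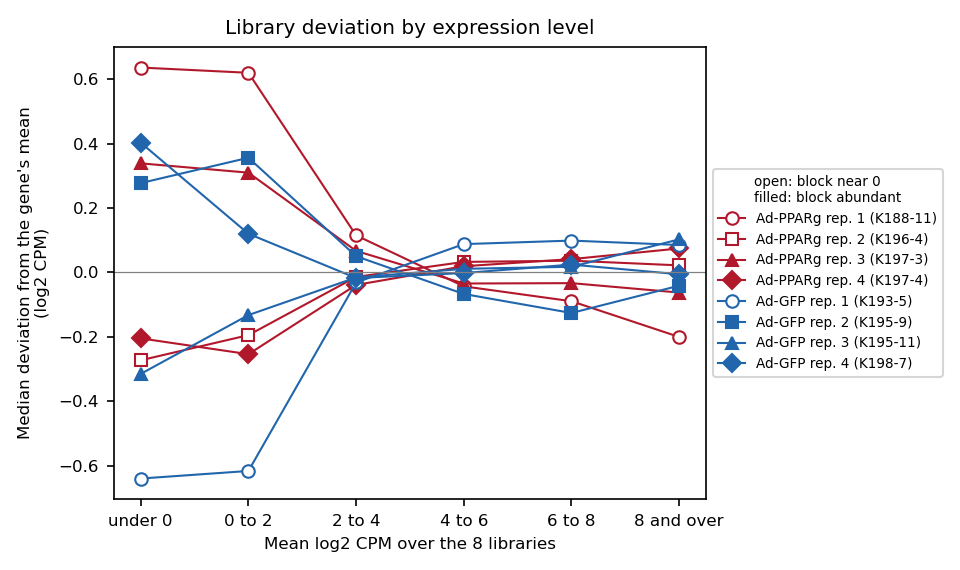
Median deviation of each library from the gene's mean over the 8 libraries (log2 CPM, vertical) by bin of mean log2 CPM (horizontal), 1 line per library, red for Ad-PPARg and blue for Ad-GFP. Below log2 CPM 2 the lines spread from -0.64 to 0.64 with red and blue mixed, and from 2 to 8 they stay between -0.13 and 0.11.

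Genes that lie next to each other had weakly related effects. Across 12341 pairs of adjacent tested genes, the Pearson correlation of the log2 fold changes was 0.12, a description across genes, which are not independent replicates. It was 0.06 for genes 2 places apart and 0.02 for genes 10 places apart. Pairs on the same strand less than 5 kb apart had the highest value, 0.46 over 871 pairs, against 0.11 over 1406 pairs on opposite strands. At 100 kb and over the values were 0.03 and -0.01. The same-strand value under 5 kb was 0.29 without Ad-PPARg replicate 1, 0.24 with the state of the mitochondrial block as a covariate, 0.20 in the 5 libraries with an abundant block and 0.19 over all genes with a count.

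Most of the strand difference came with a small number of genes. Without pairs of mitochondrial genes the same-strand value under 5 kb was 0.41 over 854 pairs. Without single-exon genes shorter than 300 bases as well, it was 0.16 over 781 pairs, near the 0.10 of opposite-strand pairs chosen alike. The rank correlation of those 781 pairs was 0.17, and 55.4% of them had the same sign. Of the 197 tested genes of this short class, 18 (9.14%) were more than 2-fold higher in Ad-PPARg replicate 1 than in any other library, against 253 of the 12819 other genes outside the mitochondrial sequence (1.97%). Among pairs of genes with a mean log2 CPM of at least 2, without both classes, the same-strand value was 0.28 over 548 pairs and the opposite-strand value 0.10 over 1024. Overlapping genes on opposite strands had 0.24 over 505 pairs, and since the use of strand in counting is not stated, reads of such pairs cannot be told apart.

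The same measure was taken for each of the 28 pairs of single libraries. With all genes, the 15 pairs that differ in the state of the mitochondrial block had same-strand values under 5 kb of 0.43 to 0.64, and the 13 pairs of the same state -0.01 to 0.49. Without mitochondrial genes the ranges were 0.22 to 0.54 and -0.02 to 0.48. Without short single-exon genes too they were 0.06 to 0.20 and -0.05 to 0.28, so that the pairs of different state were no longer the higher ones. The 16 pairs of opposite treatment gave -0.05 to 0.28 on this reduced set and the 2 pairs of 1 prefix 0.13 to 0.20.

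**Figure D3:**
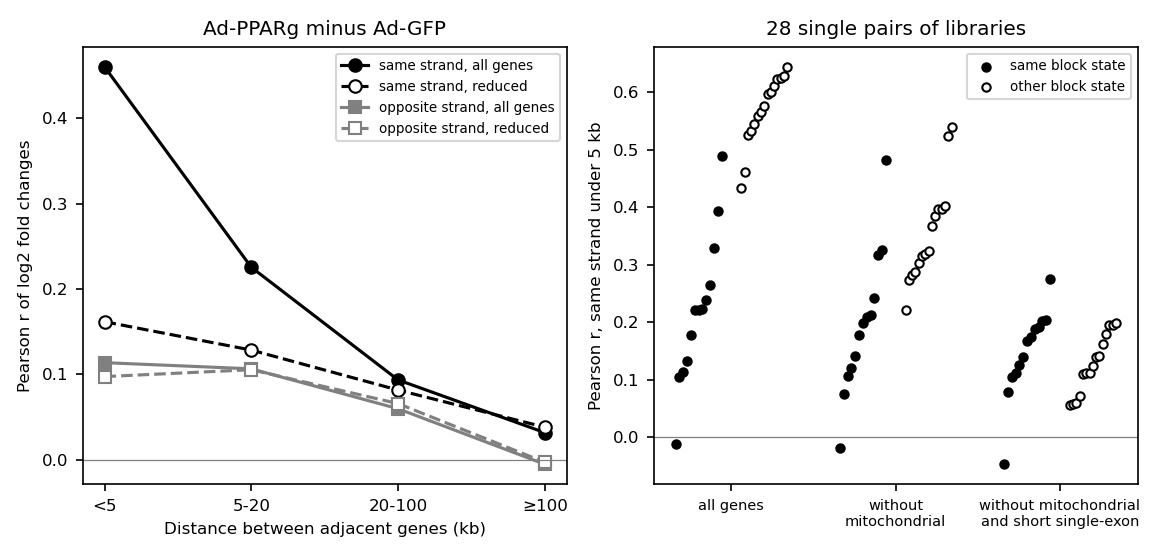
Left, Pearson correlation of the log2 fold changes of adjacent genes by distance in kb, on the same strand (black) and on opposite strands (grey), with all genes (solid) and without mitochondrial and short single-exon genes (dashed, reduced). Right, the same-strand correlation under 5 kb for each of the 28 pairs of libraries, filled for the same and open for different block state, which falls from at most 0.64 with all genes to at most 0.28 without both classes.

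Over whole chromosomes the effects differed little. For the 25 chromosomes and scaffolds with at least 50 tested genes, median log2 fold changes lay between -0.03 (chromosome 17) and 0.06 (chromosome 9). The share of genes with an unadjusted p under 0.05 lay between 4.82 and 17.1%, the highest on chromosome 18.

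There were 15 runs of 3 consecutive tested genes with 1 sign and an unadjusted p under 0.05 each in edgeR. Of these, 6 were higher and 9 lower in Ad-PPARg, none was longer, and 4 had all genes on 1 strand. The runs held 45 genes, where 1488 of 13041 tested genes (11.4%) had such a p. Some runs arise without any link between neighbours, and an expected number was not computed. The run of lowest p spanned 175 kb of chromosome 2, from 115326306 to 115501602, and its 3 genes were higher in Ad-PPARg. Its first gene had 95.9, 30.4, 123 and 106 CPM in Ad-PPARg and 16.6, 25.1, 20.9 and 33.7 in Ad-GFP, and Ad-PPARg replicate 2 lay within the Ad-GFP range (edgeR adjusted p = 0.409, and 0.0293 without that library). Omitting the only overlapping Ad-PPARg library widens the difference by its choice, so the lower p is no added support. Its last gene, 115393840 to 115501602, had 19.0, 11.0, 15.7 and 15.0 CPM against 6.03, 3.93, 5.00 and 8.19, with the groups apart. The middle gene was low, at 1.34 to 3.87 CPM against 0.724 to 1.19.

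On chromosome 8, from 12495169 to 12576598, the 3 genes of a run were lower. The first had 14.9, 15.5, 12.5 and 15.6 CPM in Ad-PPARg and 37.1, 20.3, 24.6 and 28.4 in Ad-GFP. The second was near the floor, at 0.0672 to 0.595 CPM against 0.745 to 2.01. The third overlapped, at 13.8 to 20.9 CPM against 16.1 to 33.0. On chromosome 12, a run of 291 kb from 104446358 was higher in Ad-PPARg. Its middle gene, 104562074 to 104604153, had 15.8, 16.5, 38.9 and 27.8 CPM against 4.91, 9.31, 8.92 and 13.6, without overlap. The first gene of that run overlapped, at 26.5 to 49.0 CPM against 26.2 to 30.2, and the last did not. On chromosome 9, 3 genes from 14443034 to 14561762 were higher by log2 fold changes of 0.50 to 0.67, the last with 253, 246, 272 and 394 CPM against 190, 161, 188 and 193. Runs on chromosome 13 from 128352476 and on chromosome 11 from 41351071 were lower, with log2 fold changes of -1.26 to -0.21 and of -0.86 to -0.65. None of the 18 genes in these 6 runs passed the edgeR threshold.

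The mitochondrial division was read from 15 genes of at least 200 bases, given here in CPM on raw totals. Mitochondrial DNA is transcribed as long RNAs that are then processed, so the genes of 1 strand share a transcript. The 5 genes that start before position 7000 were present in all 8 libraries. The gene from 5354 to 6895 had 10461, 7079, 7313 and 8364 CPM in Ad-PPARg and 9903, 15482, 12303 and 8822 in Ad-GFP, and the libraries with a block near 0 were not set apart.

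After position 7000 the libraries fell into distinct levels. The gene from 7039 to 7722 had 10.7 and 3.57 CPM in the first 2 Ad-PPARg libraries and 3.64 in Ad-GFP replicate 1. It had 1499 and 1731 CPM in the K197 libraries and 4384, 3091 and 1770 in Ad-GFP replicates 2 to 4. The mean of the 5 abundant libraries was 417-fold above the mean of the 3 near 0. Across the 10 genes this ratio ran from 16.7 to 571. It was lowest for the only gene on the minus strand, 13579 to 14103, with 24.5 to 48.2 CPM in the 3 libraries and 477 to 768 in the 5. Counts on the 10 genes added up to 536 to 1051 reads per library in the 3. The gene at 9906 was at 0 in Ad-PPARg replicate 1 and at 0.471 and 0.446 CPM in the other 2 of them.

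Position 7000 did not mark the division for every gene. Before it, 3 short minus-strand genes were low in the same 3 libraries. The gene from 5107 to 5179 had 0.801, 0.741 and 0.966 CPM there and 24.3 to 91.1 in the other 5. The minus-strand genes at 5040 and 5212 reached at most 0.160 and 0.801 CPM in the 3 libraries and at least 5.69 and 13.6 in the 5. Strand did not decide it. Near the floor, the plus-strand genes at 3704 and 4971 reached at most 0.149 and 0.0673 CPM in the 3 and at least 0.632 in the 5. The minus-strand gene at 3771 overlapped, with 0.269 to 2.24 CPM in the 3 and 0.422 to 1.20 in the 5.

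Within the 5 abundant libraries all 10 genes were lower in Ad-PPARg, by log2 differences of -0.93 to -0.39, and the 5 genes before position 7000 were lower as well, by -1.32 to -0.32. These rest on 2 Ad-PPARg libraries of 1 prefix. In the fit of all 8 libraries the gene at 7039 had a log2 fold change of -1.55 with an SE of 2.05, since both states occur in both groups. The OPC libraries had the same division. The 10 genes together had 107 CPM in OPC of K188-11 and 80.0 in OPC of K196-12, and 13659 to 18179 CPM in the other 6, so each prefix had 1 state in both cell types wherever it was seen. The state and the prefix cannot be told apart.

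**Figure D4:**
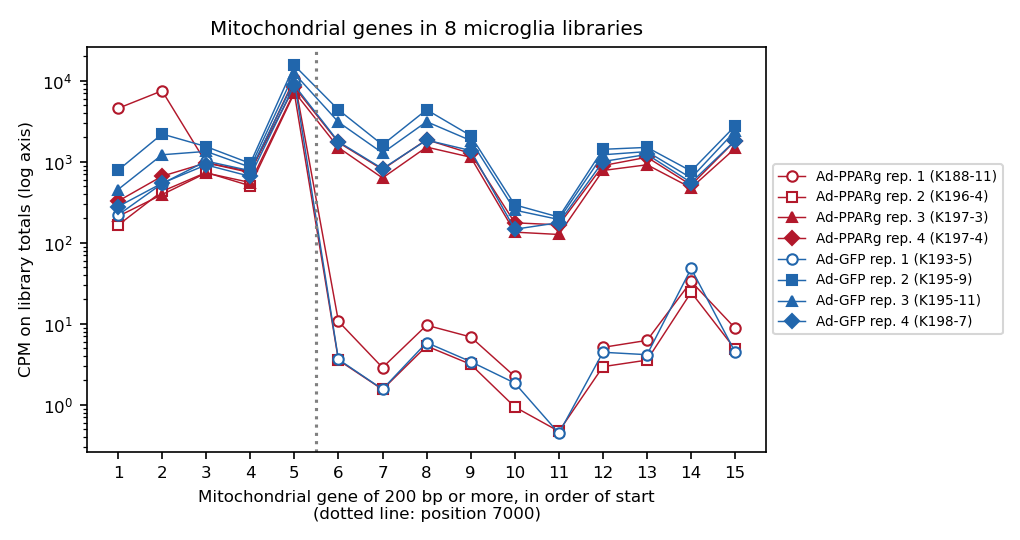
CPM on library totals (log axis) of the 15 mitochondrial genes of at least 200 bases in order of start, 1 line per library, red for Ad-PPARg and blue for Ad-GFP, open where the block was near 0. The 3 open lines drop below 50 CPM to the right of position 7000 (a value of 0, in Ad-PPARg replicate 1 for gene 11, is not drawn), while the filled lines stay at 127 CPM or above.

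The division was mirrored by genes outside the listed mitochondrial sequence. Scaffold AAGW02081404 carries a gene of 297 bases at 24130 to 24426 with 372, 259 and 422 CPM in the libraries with a block near 0 (Ad-PPARg replicates 1 and 2 and Ad-GFP replicate 1) and 1.66 to 2.14 in the other 5. A second gene there, 27532 to 27689, had 1719, 1137 and 1584 CPM in the same 3 libraries and 3.72 to 9.83 in the 5. The groups by state were thus opposite to those of the mitochondrial block. The OPC libraries of K188-11 and K196-12 had 482 and 535 CPM of the first gene and the other 6 OPC libraries 1.76 to 3.81. The first gene is as long as the mitochondrial gene from 9906 to 10202, which had 0 to 0.471 CPM in the 3 libraries and 127 to 208 in the 5. Whether their sequences are alike was not tested, and near-identical copies could trade reads in the counting.

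These 2 genes came from a search for genes that switch between libraries, set after the values had been seen: a gap of at least 8-fold between libraries ranked by CPM (with 0.25 added), and at least 3 CPM in every library above the gap. It found 63 genes. Of these, 18 followed the state of the block, 15 of them mitochondrial (3 on the minus strand before position 7000), and 29 were high in Ad-PPARg replicate 1 alone. The remaining gene that followed the block, on the X chromosome, 57169125 to 57169999, had 1.28, 1.14 and 1.63 CPM in the 3 libraries and 21.5 to 25.5 in the 5. In OPC it had 1.05 and 1.21 CPM where the block was near 0 but also 1.88 in K198-5, where the block was abundant.

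Prefixes showed most plainly in single genes. A gene on chromosome 7, 60462476 to 60496571, with 8 exon entries, had 0.211 and 0.246 CPM in the K197 libraries and 265 and 305 CPM in the other Ad-PPARg libraries. The Ad-GFP libraries had 140, 131, 145 and 135 CPM. Both K197 animals had 0.239 and 0.254 CPM in OPC too, and the other OPC libraries 58.7 to 167. Outside K197 both Ad-PPARg libraries lay above all Ad-GFP libraries.

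A gene on scaffold GL018716, 49308 to 53967, had 393, 238, 339 and 579 CPM in K188-11, K197-3, K197-4 and K198-7 and 0.892 to 1.51 in the other 4 libraries. Each pair of animals of 1 prefix was alike, and both treatments had both levels. In OPC the gene did not exceed 15.2 CPM. Among all 33 genes of the search that were high in more than 1 library, K197 and K195 were both undivided for 26, and for 11 of the 18 that are not mitochondrial. In the 7 genes that split a prefix, K197 was divided and K195 was not. Since the rule chose genes by their gaps, this is a description.

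The 29 genes high in Ad-PPARg replicate 1 alone were mostly short: 24 were single-exon genes under 300 bases, 14 lay on scaffold GL019111 and 3 on GL019301. The gene from 164084 to 164175 of GL019111 had 18633 CPM in that library, 1.86% of its counts, and 189 to 557 CPM in the other 7. In OPC of the same animal it had 1080 CPM against 115 to 537. For 25 of the 29 genes the OPC library of K188-11 was the highest OPC library as well. All short single-exon genes together took 3.77% of the counts of Ad-PPARg replicate 1, 0.316 to 0.340% of the other Ad-PPARg libraries and 0.376 to 0.451% of Ad-GFP. Without that library the 3 remaining Ad-PPARg libraries were below all Ad-GFP libraries (difference -0.0811 percentage points, two-sided exact permutation p = 0.0286, the smallest that 3 against 4 allows). With it the p was 1.00.

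In the median over all genes, libraries varied less within prefixes than between prefixes of 1 treatment. The median mean square of log2 CPM was 0.0290 within prefixes and 0.0963 between prefixes of 1 treatment, a ratio of 3.32, and 0.0955 between treatments. The ratio of the treatment to the between-prefix value was 0.992 over all genes, 0.452 in the bin from 0 to 2, 1.02 from 4 to 6 and 1.5 at 8 and over. These medians rest on unequal degrees of freedom, so a ratio of 1 does not stand for equal variation and the ratios were not tested. The within-prefix term rests on 2 pairs. Without Ad-PPARg replicate 3 the ratio of between to within was 5.08 and without replicate 4 it was 4.65.

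Pairs of libraries were compared at log2 CPM of 2 and over (10332 genes). The median absolute log2 difference was 0.161 and 0.185 for the 2 pairs of 1 prefix. It was 0.180 to 0.361 for the 10 pairs of other prefix and the same treatment, and 0.163 to 0.359 for the 16 pairs of opposite treatment, with medians of 0.256 and 0.302. The closest pair of each other kind was closer than the K197 pair, at 0.185. In a principal component analysis, PC1 (38.8% of variance) ran from Ad-GFP replicate 1 at -61.1 to Ad-PPARg replicate 3 at 36.8, and on PC2 (22.7%) Ad-PPARg replicate 1 stood at 41.2 and the K195 libraries at -29.5 and -26.8. Neither component separated the treatments.

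**Figure D5:**
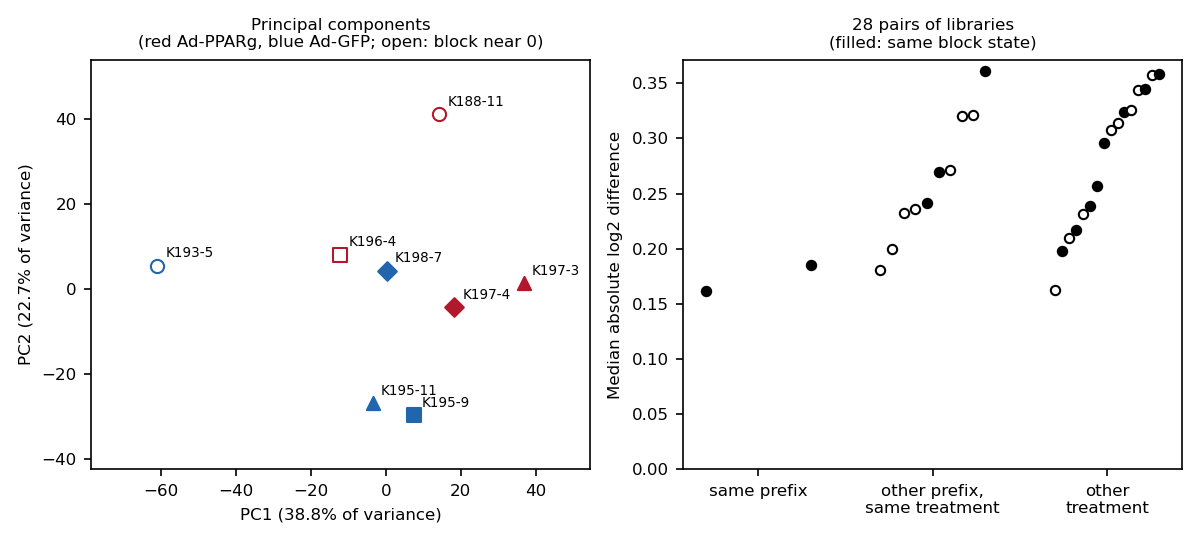
Left, the 8 libraries on PC1 (38.8% of variance) and PC2 (22.7%), red for Ad-PPARg and blue for Ad-GFP, open where the block was near 0. Right, the median absolute log2 difference of each of the 28 pairs of libraries by kind of pair, filled where both have the same block state; the 2 pairs of 1 prefix (0.161 and 0.185) are among the lowest and the other kinds overlap.

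Because both treatments have libraries of both states, the treatment difference could be read separately in each, in sets that share neither libraries nor prefixes. The abundant set compares 2 Ad-PPARg libraries (both K197) with 3 Ad-GFP libraries, and the near-0 set 2 Ad-PPARg libraries with Ad-GFP replicate 1 alone. Across the 10332 genes of log2 CPM 2 and over, the differences correlated at 0.45 (rank correlation 0.55), and 68.9% had the same sign. The correlation was 0.54 from 4 to 6 and from 6 to 8, and 0.11 from 0 to 2, where 52.0% had the same sign. Without Ad-PPARg replicate 3 it was 0.24 and without Ad-PPARg replicate 4 it was 0.55. The single Ad-GFP library of the near-0 set cannot be told apart from its prefix.

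Large differences carried over unequally. Of the 100 genes outside the mitochondrial sequence with the largest difference in the abundant set at this level, 30 of the 36 higher and 43 of the 64 lower ones had the same sign in the near-0 set, with medians of 1.69 and -1.56 there. Of the 100 largest in the near-0 set, 63 of 89 higher and 9 of 11 lower ones had the same sign in the abundant set. The median of the higher ones shrank from 3.04 to 0.20. Differences picked by their size in a set with a single Ad-GFP library tend to be smaller elsewhere. How many of the 29 genes high in Ad-PPARg replicate 1 alone were among the 89 was not read. Over all 10332 genes of this level 68.9% had the same sign, and the 43 of 64 and the 63 of 89 were near that share. Differences between the states were shared between treatments as well. Near-0 minus abundant within Ad-PPARg and within Ad-GFP, again without shared libraries, correlated at 0.47 with mitochondrial genes and 0.34 over the 10312 other genes. There, 68 genes were at least 2-fold lower in both near-0 sets, 39 at least 2-fold higher in both, and 26 went opposite ways.

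With the state of the block as a covariate, edgeR called 91 genes (0.698%), 46 higher (0.353%) and 45 lower (0.345%) in Ad-PPARg. In the 5 abundant libraries alone it called 57 of 13679 (0.417%), 23 higher (0.168%) and 34 lower (0.249%). The Ad-PPARg libraries of that fit both have prefix K197, and both fits take libraries that share a prefix as independent. The lists shared 26 genes, 28.6% of the first and 45.6% of the second, all with the same sign, and they share 5 libraries. Of the 91, 61 were at least 2-fold higher in microglia than in OPC and 7 higher in OPC, where 23.6% and 20.2% of all tested genes were. The groups did not overlap for 45, against 4.15% of all tested genes. Without the covariate 79 had an unadjusted p under 0.05 in edgeR, against 11.4% of all tested genes. The 91 were chosen by a treatment test on the same libraries, so the high counts without overlap and with a low unadjusted p follow from the choice. The classes come from the comparison of cell types. Without the covariate, 17.5% of all microglia-higher and 6.12% of all OPC-higher genes had an unadjusted p under 0.05 in edgeR. The source of this difference was not tested. Since the covariate was taken from the counts and follows the prefix, these are conditional on a division whose origin is not known.

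The first of these genes, on scaffold GL018725, 971854 to 979002, had 13.5 and 11.8 CPM in Ad-PPARg and 70.0 in Ad-GFP where the block was near 0. Where it was abundant it had 3.78 and 3.59 CPM in Ad-PPARg and 15.6, 19.4 and 24.6 in Ad-GFP. It was lower in Ad-PPARg within both states, by -2.44 on the log2 scale (SE 0.17, edgeR adjusted p = 0.00186). Without the covariate the difference was -2.01 (edgeR adjusted p = 0.409). The second, on GL018883, 93393 to 94168, had 14.7 and 19.9 CPM against 1.77 in the near-0 libraries and 90.4 and 57.0 against 9.12, 7.67 and 3.28 in the abundant ones, higher by 3.38 on the log2 scale (SE 0.31, edgeR adjusted p = 0.00964).

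Genes named above were among the 91. The middle gene of the run on chromosome 12 had a fitted difference of 1.69 (log2, SE 0.19, edgeR adjusted p = 0.0142), and the gene of lowest p, on chromosome 14 at 53115895, had -2.23 (SE 0.25, same adjusted p). Both neighbours on chromosome 5 were called, at 22576123 with 1.82 (SE 0.21, edgeR adjusted p = 0.0142) and at 22586307 with 1.82 (SE 0.24, edgeR adjusted p = 0.0228). A gene on chromosome 1, 123723183 to 123786844, was called although its groups overlapped over all 8 libraries: 16.5 and 19.6 CPM against 39.3 near 0, and 7.09 and 7.92 against 16.9, 18.0 and 17.6 where abundant. An abundant gene, on chromosome 18, 45635521 to 45637896, had 136 and 198 CPM against 412 near 0, and 106 and 107 against 221, 232 and 219, with a fitted log2 difference of -1.16 (SE 0.14, edgeR adjusted p = 0.0142).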

How the data were processed

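Sorted microglia gave 1 RNA-seq library per animal. Subread 1.5.2, STAR 2.5.2b and bcl2fastq 2.17 are the tools in the submitters' processing notes, which state no role for them. The deposited values are raw read counts per gene, 1 file per library, with exon positions, strand and length per the file headers. For the genome build, the annotation release and the use of strand, the sources used here give nothing. Of the 23669 identifiers, 0 matched the 38822 genes of the reference table, so the marker and gene lists could not be used.

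The main test was edgeR 4.0.16 (R 4.3.3) quasi-likelihood with TMM, the default filter and adjustment over 13041 genes. SE is the size of the log2 fold change divided by the square root of F. Log2 CPM used a prior count of 2. DESeq2 1.42.0 and limma 3.58.1 were alternatives. Level, neighbourhood, prefix and block comparisons are descriptions without a test. Within groups, chi-square per gene was 15.1 to 99.9 for the 12 pairs of libraries, so none was a repeat. Named genes were the 12 of lowest p per direction, the 10 of highest mean CPM, mitochondrial genes of at least 200 bases and the genes of 6 runs. At most 2 identifiers per direction are printed. The libraries, rules and lists were chosen with earlier results of these data known. The fits were tested on simulated data.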

Additional observations from a re-analysis of the deposited data

Results flagged for a closer look

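In 6 of 114 groups of 4 values checked, 1 library stood far from the other 3 by Dixon's 95% criterion, and chance flags about 1 in 20 such groups. Of these, 4 concern Ad-PPARg replicate 1 (K188-11). Its share of counts on mitochondrial genes before position 7000 was 2.43% against 0.892 to 1.11% in the other Ad-PPARg libraries, and its share on short single-exon genes was 3.77% against 0.316 to 0.340%. The mitochondrial genes at 70 to 1026 and 1093 to 2671, the first long genes of the molecule, had 4563 and 7520 CPM there against 165 to 326 and 394 to 664 CPM. In Ad-GFP replicate 1 (K193-5) the mitochondrial gene at 9906 had 0.446 CPM against 177 to 208 in the other Ad-GFP libraries, as part of the block. In Ad-GFP replicate 4 (K198-7) the gene on GL018706 at 1445240, one of the 12 higher genes, had 25.0 CPM against 14.1 to 15.6.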

How the results depend on the processing

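Against 0 genes called by edgeR, 4 were called among all genes with at least 1 count, 109 by DESeq2, 1281 by limma with sample quality weights, 1 by limma with the prefix as a random block, 91 with the block state as a covariate and 57 in the abundant libraries, and 0 to 4 with 1 library left out. Genes with an unadjusted p under 0.05 numbered 1488, 4179 with quality weights, 810 with the random block, 532 with counts summed per prefix and 735 to 2801 with 1 library left out. The neighbour correlation of 0.123 was 0.0798 over all genes with a count, 0.109 with the random block, 0.0919 with the covariate, 0.154 at log2 CPM of 2 and over, 0.0808 without mitochondrial and short single-exon genes (chosen after seeing the data) and 0.0907 to 0.135 with 1 library left out. The median log2 fold change from log2 CPM 0 to 2 was 0.25, -0.11 in the abundant libraries and 0.015 to 0.40 with 1 left out. With 1 left out, the ratio of prefix mean squares was 2.73 to 5.08 and the correlation of the block sets 0.241 to 0.550. Leaving out 1 library turned the sign of the Ad-PPARg minus Ad-GFP difference in total counts (-3.76 to 0.366 in units of 1e+06), genes detected (-1583 to 435), the mitochondrial share before position 7000 (-0.547 to 0.00789 points) and the short-gene share (-0.0811 to 1.07 points), and moved that of the 100 most abundant genes between -2.64 and -1.52 points (lowest exact p 0.0286). The causes were not tested. Of 773 values of 39 named genes under the alternatives, 685 stayed on their side of the threshold, 88 passed it and 0 reversed. No paired analysis was possible because replicate numbers follow accession order and no prefix or animal has both treatments.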

Other observations

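Some genes found by the search for gaps between libraries kept an animal's state in both of its sorted cell types and divided the K197 animals. A single-exon gene on chromosome 14, 65242240 to 65242760, had 95.8 and 106 CPM in microglia of K188-11 and K197-4 and 5.73 to 9.43 CPM in the other 6 animals. In OPC the same animals had 113 and 71.7 CPM and the other 6 had 3.66 to 6.87. K197-3, which shares its prefix with K197-4, was low in both cell types. A gene on chromosome 2, 27709552 to 27710106, ran the other way, with 4.43 and 3.16 CPM in microglia of K197-4 and K198-7 against 37.3 to 91.8, and 5.42 and 2.13 CPM in OPC of those animals. On chromosome 10, 12911779 to 12912105, K197-4 and K198-7 had 14.0 and 14.8 CPM in microglia and 12.5 and 9.45 in OPC, against at most 1.26 CPM in the other microglia. OPC of K198-5 and K196-12 were high too, at 13.1 and 12.5 CPM, so both K198 animals were alike for this gene. The K196 animals were not, with 0.741 CPM in microglia of K196-4, although each was seen in a different cell type. The gene on chromosome 2 divided the K198 animals, with 24.6 CPM in OPC of K198-5 and 2.13 in OPC of K198-7. These 3 genes were picked after their values were seen, and both treatments hold both levels of the second and the last. The cause was not tested.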
